A study of Mus musculus with 15 samples.

Results

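The difference between the responses of wildtype and Sirt3 knockout muscle to calorie restriction (CR) was measured gene by gene as an interaction, the CR change in knockout mice minus the CR change in wildtype mice. All 15 arrays of the series entered it, in 4 groups assigned from the sample titles, and it was tested for 12056 of 19938 named genes. Muscle was the gastrocnemius of 12 month old C57BL/6 males, with 1 mouse per array, labelled as biological replicates. The groups were 3 wildtype mice on the control diet, 4 wildtype mice on CR, 4 Sirt3 knockout mice on the control diet and 4 Sirt3 knockout mice on CR. The sources used here do not give the degree and start of CR, the make-up of the control diet or the construction of the knockout. Values are log2 RMA intensities, on which a difference of 1 is a doubling of signal, and 3 or 4 arrays per group limit the precision of every value.

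Sirt3 is a deacetylase of the mitochondrial matrix that depends on NAD and removes acetyl groups from enzymes of fuel oxidation. Its expression in muscle is known to respond to nutrient supply, which makes a mouse without it a test of which responses to CR need the enzyme. In muscle, CR is known for shifts in fuel use, in protein turnover and in the chaperones that hold the sarcomere in shape. An interaction does not ask whether CR acts in a genotype, but whether it acts to a different extent in the other.

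The Sirt3 transcript lay at 6.38 to 6.68 on the 7 wildtype arrays and at 4.94 to 6.19 on the 8 knockout arrays, so the genotypes did not overlap. No source used here says whether the knockout removes the stretch its probes read, which limits this as a check of the labels. Its change with CR was -0.14 (SE 0.27) in the wildtype arm and -0.20 (SE 0.25) in the knockout arm, an interaction of -0.05 (95% interval -0.83 to 0.72, limma adjusted p = 0.994). The 12 markers of skeletal muscle fibres, such as Acta1, Ckm and Myh4, had array means of 12.47 to 12.65 and did not set any array apart. Transcripts of other tissues did. The mean of 23 male germ cell markers exceeded that of the median array by 3.85 on wildtype control replicate 3, and by 3.25 on knockout control replicate 1. The mean of 12 pancreatic acinar markers stood 7.21 above on wildtype control replicate 2, 0.65 above on replicate 1 and 0.76 above on replicate 3 of that group. On no array of the other 3 groups was it more than 0.18 above. The mean of 15 hepatocyte markers stood 2.61 above on wildtype CR replicate 4 and 1.53 above on knockout control replicate 2. It stood 1.45 above on wildtype control replicate 1 and 0.75 above on knockout CR replicate 1. All 3 wildtype control arrays and 2 of the 4 knockout control arrays were thus over 1 above the median array in one of these sets, and all of them enter every interaction. On these arrays and on wildtype CR replicate 4 the muscle fibre marker mean was -0.10 to -0.03 relative to the median array. On all other arrays it was 0.00 to 0.09. Whether the lower muscle fibre means come from the other tissues' transcripts was not tested. Beside the results that rest on them, values are also given after leaving out both germ cell arrays. They are given too after leaving out 4 (both of these, wildtype control replicate 2 and wildtype CR replicate 4). The fit without the 4 keeps 1 wildtype control array, replicate 1, with the hepatocyte and acinar values above. It thus has no spread within that group and is not free of other tissues' transcripts. In bulk tissue, fewer cells of a type and less RNA per cell cannot be told apart.

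**Figure D1:**
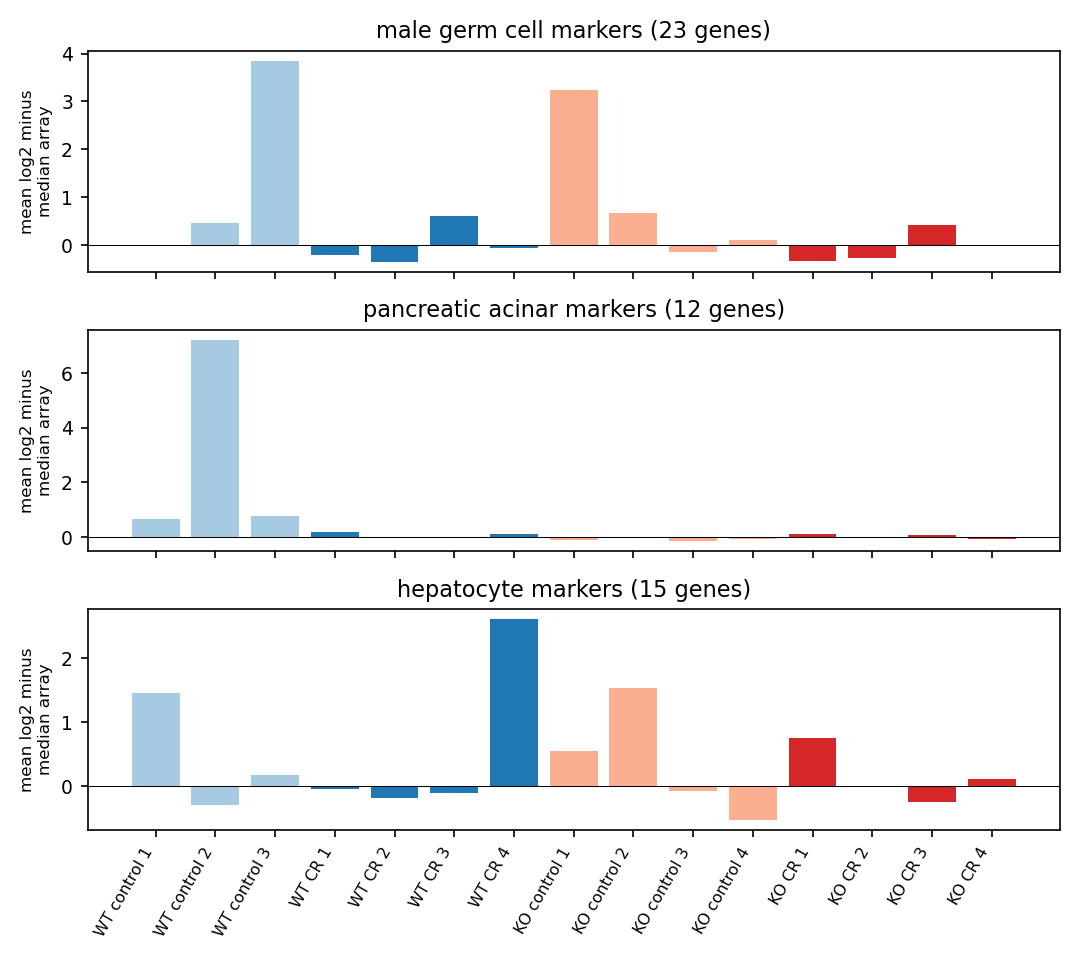
Mean log2 level of male germ cell, pancreatic acinar and hepatocyte markers on each of the 15 arrays (x axis), relative to the median array (y axis, log2); 1 bar is 1 array and colour marks the group. The germ cell set is high on 1 wildtype control and 1 knockout control array. The acinar set is by far highest on 1 wildtype control array and less raised on the rest of that group. The hepatocyte set is highest on 1 wildtype CR array.

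No gene passed the threshold for the interaction. In limma, 0 of 12056 genes (0%) had an adjusted p under 0.05, and 689 (5.71%) had an unadjusted p under 0.05. Of these 689, the CR response was lower in the knockout for 529 (4.39% of genes tested) and higher for 160 (1.33%), where the median over all genes was -0.03. At an unadjusted p under 0.001 there were 16 genes (0.133%). The imbalance moved with the arrays and the settings: the share of lower responses among genes at an unadjusted p under 0.05 was 76.8% with all arrays, 53.3% without wildtype control replicate 3 and 59.6% without the 2 germ cell arrays. With all arrays kept it was 60.2% without the filter on low values, 84.5% with the filter at the 60th percentile, 63.7% with array weights and 65.6% with the 3 marker means as covariates. Under other scalings it was 68.9% with quantile normalization and 84.9% with each array centred on its median.

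The 2 arms of the interaction share no array, so the response of 1 genotype could be read in genes chosen in the other. CR changed 15 genes in wildtype (0.124% of 12056, limma adjusted p under 0.05). Of those, 13 had the same direction in the knockout, and their median change was 0.53 in wildtype and 0.27 in the knockout when each gene was signed by its wildtype direction. CR changed 8 genes in the knockout (0.0664%), and all 8 had the same direction in wildtype, with a signed median of 1.33 in the knockout and 0.27 in wildtype. Genes chosen by a p in 1 arm tend to be smaller in the arm that did not choose them. Over the 525 genes (4.35%) at an unadjusted p under 0.01 in wildtype, 82.3% had the same direction in the knockout, beside 66.3% of all genes. For the 440 genes (3.65%) chosen in the same way in the knockout it was 83.2%. Without the 2 germ cell arrays, with genes chosen anew, these shares were 72.5% and 73.7%, beside 57.8% of all genes. Pearson's r of the 2 arms' changes across genes was 0.518 (12056 genes, which are not independent replicates), and it was 0.200 without the 2 germ cell arrays, 0.215 without wildtype control replicate 3 alone and 0.235 without knockout control replicate 1 alone. Both germ cell arrays are control arrays, 1 in each genotype, and the germ cell markers had median changes of -1.65 in wildtype and -1.21 in knockout mice.

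**Figure D2:**
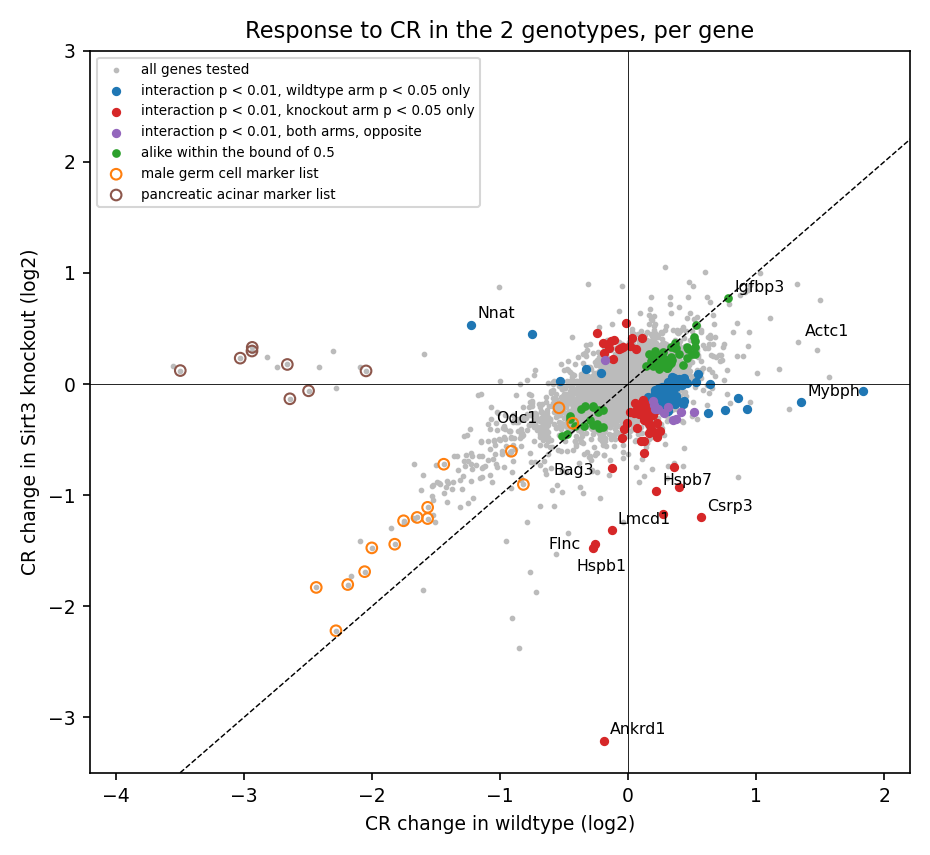
Change with CR in wildtype (x axis, log2) against change with CR in Sirt3 knockout muscle (y axis, log2) for 12056 genes; the dashed line marks equal change. Ankrd1, Hspb1, Flnc, Lmcd1 and Csrp3 lie below the line near 0 or higher on the x axis, Mybph lies to the right near 0 on the y axis, the genes that responded alike lie along the line, and the germ cell and acinar markers (open circles) form the arms at the left.

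Genes were sorted into classes where the interaction had an unadjusted p under 0.01, which 142 genes had (1.18%). In 66 genes (0.547% of 12056) CR had an unadjusted p under 0.05 in wildtype and not in the knockout. In 61 genes (0.506%) this held in the knockout and not in wildtype, in 11 (0.0912%) in both with opposite directions, in 3 (0.0249%) in both with the same direction and in 1 (0.00829%) in neither. The classes describe genes chosen on the same contrast and carry no test of their own. The wildtype class was almost all increases, 61 of 66, and the knockout class mostly decreases, 46 of 61. Without any 1 array the wildtype class had 38 to 121 genes and the knockout class 28 to 92, with the 28 found without wildtype control replicate 1. A p that misses the threshold in 1 genotype does not show that nothing happened there, so the interval was read as well: it lay within -0.5 to 0.5 in the knockout for 59 of the 66 genes and in wildtype for 49 of the 61.

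The group that stood apart differed between those classes. In 24 of the 66 genes of the wildtype class all 3 wildtype control arrays lay beyond all 12 arrays of the other 3 groups, and in 4 all wildtype CR arrays did. In the knockout class it was the knockout CR group, in 17 of 61 genes. Over all genes tested, the wildtype control arrays lay below all others in 165 genes (1.37%) and above in 51 (0.423%). The knockout CR arrays lay below in 83 (0.688%) and above in 49 (0.406%). The wildtype CR group stood apart in 21 genes above (0.174%) and 4 below (0.0332%), and the knockout control group in 7 above (0.0581%) and 3 below (0.0249%). The wildtype control group has 3 arrays and the others 4, which makes standing apart easier for it.

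A pair of sarcomere genes of immature fibres led the wildtype class and its border. Mybph encodes a myosin-binding protein of the thick filament. Its log2 values were 8.74, 9.22 and 8.73 in wildtype control, 10.31, 10.33, 9.96 and 10.39 in wildtype CR, 10.16, 9.77, 10.03 and 9.63 in knockout control and 9.61, 10.05, 9.66 and 9.63 in knockout CR muscle. The wildtype control arrays lay below all others, and the knockout arrays of both diets overlapped. CR raised Mybph in wildtype by 1.35 (SE 0.16, limma adjusted p = 0.00546), against -0.16 (SE 0.15) in the knockout. The interaction of -1.51 (SE 0.22, 95% interval -1.98 to -1.04) had the smallest p of all genes, 6.82e-06, and missed the threshold (limma adjusted p = 0.0822). It passed in 4 other settings, with a limma adjusted p of 0.0452 with a filter at the 60th percentile, 0.0283 with the 3 marker means as covariates, 0.0103 without wildtype control replicate 2 and 0.0402 with the second knockout CR array left out. The interaction was -1.34 with both germ cell arrays left out and -1.53 with all 4 arrays left out.

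Actc1 encodes cardiac alpha-actin, which skeletal muscle expresses before birth and during regrowth. Its values were 11.18, 11.72 and 11.38 in wildtype control, 12.81, 12.91, 12.30 and 13.00 in wildtype CR, 12.51, 12.56, 12.66 and 12.20 in knockout control and 12.96, 12.77, 12.82 and 12.87 in knockout CR muscle. The diets did not overlap in either genotype, and the wildtype controls again lay below every other array. CR raised it by 1.33 (SE 0.16, limma adjusted p = 0.00546) in wildtype. The change in the knockout was 0.37 (SE 0.15, limma adjusted p = 0.342) and the interaction -0.96 (SE 0.22, limma adjusted p = 0.641). Mean Actc1 in controls was 11.43 ± 0.27 for the wildtype (SD, n = 3) but 12.48 ± 0.20 for the knockout (SD, n = 4). On CR the means were 12.76 ± 0.31 and 12.85 ± 0.08 (SD, n = 4 each). The gap between the genotypes' means was thus on the control diet, where the 3 wildtype and 2 of the 4 knockout arrays carry germ cell, acinar or hepatocyte transcripts, whose part in it was not tested. The Actc1 interaction was -0.92 without the 2 and -1.11 without the 4 arrays, about the size with all arrays.

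These genes belong to a list of 19 tested genes of immature and denervated fibres, 6 of which had a lower response in the knockout at an unadjusted p under 0.05 and 0 a higher one, beside 4.39% and 1.33% of all genes. The list median was -0.12 (all genes -0.03), and -0.22 without wildtype CR replicate 4. With all arrays, the others of the 6 were the stress gene Gadd45a (-0.64), the intermediate filament genes Nes (-1.07) and Des (-0.21), and the adhesion molecule gene Ncam1 (-0.35). The acetylcholine receptor subunit genes Chrna1, Chrnd and Chrng, known to rise after denervation, had interactions of 0.11, -0.02 and 0.29, none at an unadjusted p under 0.05. Myog, a transcription factor of fibre formation, had -0.48 (SE 0.27, limma unadjusted p = 0.103).

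Other genes of the wildtype class served membrane traffic, translation and signalling. Stxbp4, a syntaxin-binding protein of vesicle traffic, lay at 7.87, 7.91 and 7.74 in wildtype control, 8.65, 8.48, 8.40 and 8.38 in wildtype CR, 8.09, 8.33, 8.45 and 8.18 in knockout control and 8.39, 8.34, 8.01 and 8.31 in knockout CR muscle. CR raised it by 0.64 (SE 0.11, limma adjusted p = 0.0419) in wildtype, and the change was 0.00 (95% interval -0.21 to 0.21) in the knockout. Its interaction was -0.64 (SE 0.15, limma adjusted p = 0.641). The uncharacterised gene 2310022A10Rik rose by 0.44 in wildtype (SE 0.07, limma adjusted p = 0.0419), beside 0.06 in the knockout. Aimp2, a scaffold of the complex of tRNA synthetases, had changes of 0.63 in wildtype and -0.26 in the knockout (interaction -0.89, SE 0.20), and Ift27, a small GTPase of transport in cilia, of 0.37 and -0.12 (interaction -0.49, SE 0.11). In neither did an arm or the interaction pass the adjusted threshold. Aimp2 and Ift27 did not overlap between diets in wildtype and did in the knockout.

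Sgk1, a kinase gene induced by glucocorticoids, also belonged here. Its values were 8.61, 8.06 and 7.93 in wildtype control, 9.19, 9.19, 8.97 and 8.86 in wildtype CR, 8.37, 9.06, 9.54 and 9.08 in knockout control and 8.98, 9.11, 8.62 and 8.82 in knockout CR muscle. The diets did not overlap in wildtype and overlapped widely in the knockout. The changes were 0.86 (SE 0.22) and -0.13 (SE 0.21), and the interaction was -0.99 (SE 0.31, limma adjusted p = 0.824). Of the 20 tested genes of the glucocorticoid response, Sgk1 alone had an interaction at an unadjusted p under 0.05, and the list median was -0.21, with 0.32 in wildtype and 0.19 in the knockout. That median was -0.51 without knockout control replicate 1 and 0.00 without knockout control replicate 3.

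**Figure D3:**
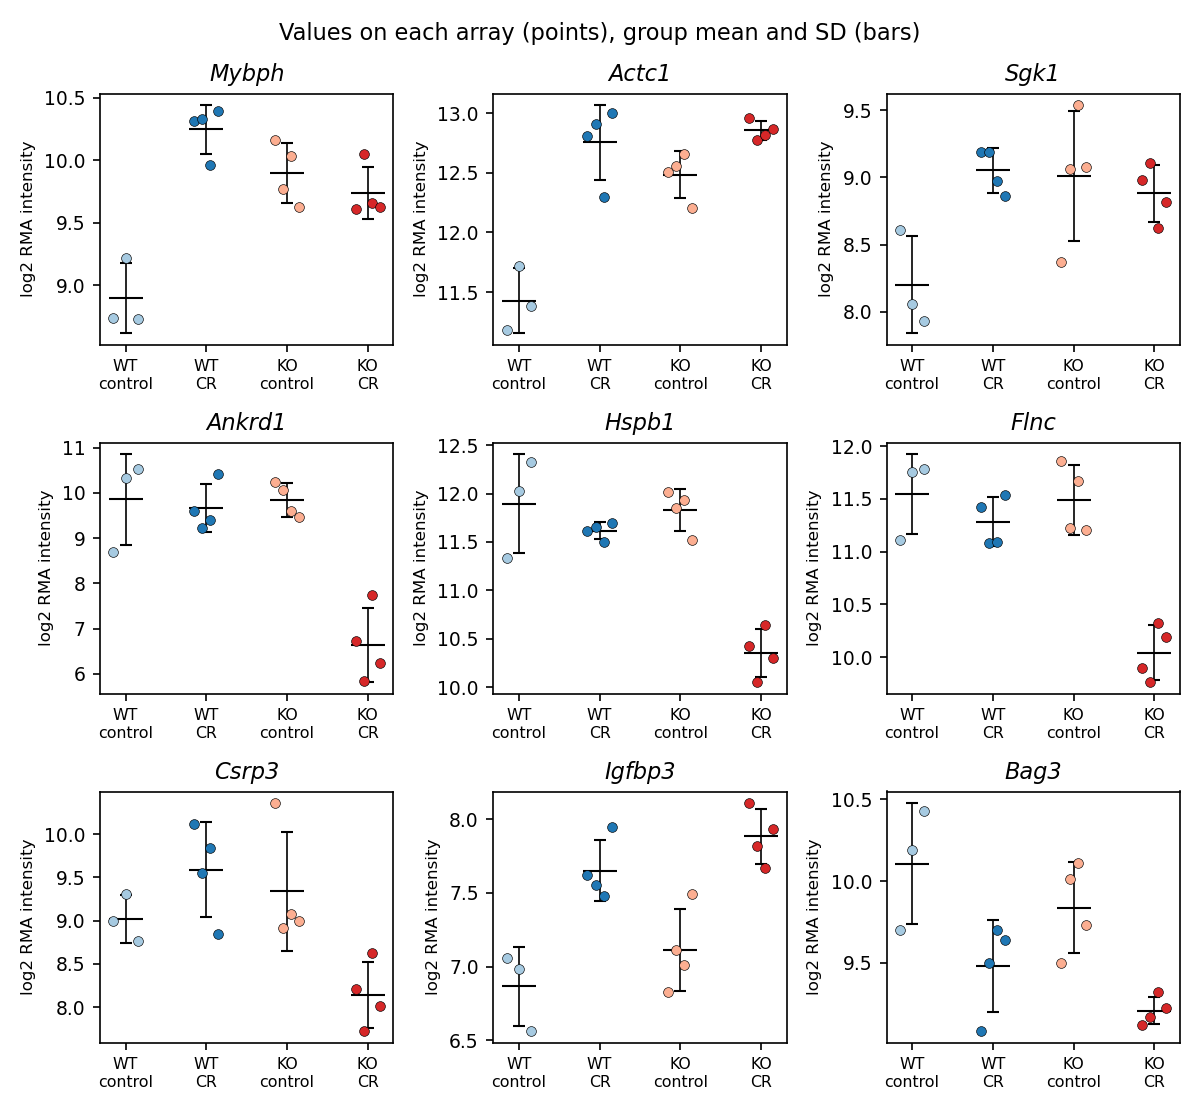
Log2 RMA intensity (y axis) of 9 genes on each array (points), with group means and SD (bars), for wildtype (WT) and knockout (KO) muscle on the control diet and CR. Wildtype controls lie below the other groups for Mybph and Actc1, knockout CR arrays lie below the other groups for Ankrd1, Hspb1, Flnc and Csrp3, and CR arrays lie on the same side of controls in both genotypes for Igfbp3 and Bag3.

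The knockout class held genes of the Z-disc and of mechanical load, beside chaperone genes described further on. By the interaction p it began with the chaperone gene Hspb7, followed by Ankrd1. Ankrd1, which encodes a stretch-responsive ankyrin repeat protein bound to titin, had values of 8.70, 10.33 and 10.54 in wildtype control, 9.61, 9.22, 9.41 and 10.42 in wildtype CR and 10.24, 10.07, 9.61 and 9.46 in knockout control muscle. On knockout CR arrays it was at 6.73, 5.84, 7.75 and 6.23. The highest knockout CR array lay below the lowest of all the others, and the wildtype diets overlapped. CR lowered it in the knockout (-3.21, SE 0.44, limma adjusted p = 0.0142), beside -0.19 (SE 0.47) in wildtype. The interaction was -3.02 (SE 0.64, 95% interval -4.40 to -1.64, limma adjusted p = 0.641). It ranged from -3.39 to -2.44 without any 1 array, the latter without wildtype control replicate 1. The Ankrd1 interaction was -3.23 without the 2 arrays. Without the 4 it was -3.80, where the only wildtype control array kept was the lowest of its group, at 8.70. With the marker means as covariates it was -3.81 and passed (limma adjusted p = 0.0355).

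Flnc encodes filamin C, which ties actin filaments to the Z-disc. It lay at 11.11, 11.75 and 11.78 in wildtype control, 11.42, 11.08, 11.09 and 11.54 in wildtype CR, 11.86, 11.22, 11.67 and 11.20 in knockout control and 9.90, 9.76, 10.32 and 10.19 in knockout CR muscle. As with Ankrd1, the knockout CR group lay apart from the other 3. The wildtype change was -0.26 (SE 0.21) and the knockout change -1.44 (SE 0.19, limma adjusted p = 0.0142), an interaction of -1.18 (SE 0.28, limma adjusted p = 0.663). Lmcd1, a LIM protein that represses GATA factors, had an interaction of -1.19 (SE 0.32), with -0.13 in wildtype and -1.32 in the knockout (limma adjusted p = 0.0395 for the knockout change). Enah, an actin filament regulator, had changes of -0.47 and -1.34 (limma adjusted p = 0.0395 for the latter), with an interaction of -0.87 (SE 0.32). Its interaction (limma unadjusted p = 0.0161) left it outside the class. Wildtype control replicate 1 was the lowest wildtype control array for Flnc, Lmcd1 and Enah. Without it their interactions were -0.96, -0.95 and -0.59.

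Csrp3 encodes the muscle LIM protein, a Z-disc protein linked to load sensing. Its values were 8.99, 9.31 and 8.76 in wildtype control, 10.12, 9.55, 9.84 and 8.85 in wildtype CR, 10.36, 8.91, 9.08 and 9.00 in knockout control and 8.21, 7.72, 8.62 and 8.01 in knockout CR muscle. All knockout CR arrays lay below all others, and 1 knockout control array lay far above its group. The mean change had opposite signs, 0.57 (SE 0.35) in wildtype and -1.20 (SE 0.32) in the knockout. The interaction was -1.76 (SE 0.47, limma adjusted p = 0.718) and -1.42 without knockout control replicate 1.

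In all, 9 of 24 tested stretch and Z-disc genes had a lower response in the knockout at an unadjusted p under 0.05 and 0 a higher one, beside 4.39% and 1.33% of all genes. The list median interaction was -0.20 (wildtype 0.01, knockout -0.29), and it stayed between -0.26 and -0.17 when any 1 array was left out. The 9 were Ankrd1, Ankrd2, Csrp3, Flnc, Lmcd1, Enah, Fhl1, Xirp2 and the small heat shock protein gene Cryab. The other 15 had interactions from -1.15 for Xirp1 (limma unadjusted p = 0.0617), an actin-binding repeat protein, to 0.03 for Tcap, which caps titin at the Z-disc, and for Actn3, alpha-actinin 3. Without the 2 and without the 4 arrays the count was 9 in both fits. The list was written with these data known, so its count is a description.

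Chaperone genes varied in their response. Hspb1 encodes a small heat shock protein that binds unfolded client proteins and actin. It lay at 11.33, 12.03 and 12.33 in wildtype control, 11.61, 11.66, 11.50 and 11.70 in wildtype CR, 12.02, 11.85, 11.93 and 11.52 in knockout control and 10.43, 10.05, 10.64 and 10.30 in knockout CR muscle. The wildtype diets overlapped and the knockout CR group lay below all other arrays. CR lowered it in the knockout (-1.47, SE 0.18, limma adjusted p = 0.0131), beside -0.28 (SE 0.20) in wildtype, and the interaction was -1.20 (SE 0.27, limma adjusted p = 0.641). Without the 4 arrays it was -1.67 and passed (limma adjusted p = 0.0453), in a fit with 1 wildtype control array, assumed to vary like the others. Without wildtype control replicate 1, the lowest wildtype control array for this gene, it was -0.91.

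Hspb7, a small heat shock protein of muscle that binds filamin C, had the second smallest interaction p. Its values were 10.46, 10.30 and 10.29 in wildtype control, 10.53, 10.37, 10.89 and 10.50 in wildtype CR, 11.49, 10.68, 10.89 and 10.59 in knockout control and 10.15, 9.84, 10.05 and 9.74 in knockout CR muscle. Knockout controls lay above, and knockout CR arrays below, all 3 wildtype controls. The wildtype change was 0.22 (SE 0.18) and the knockout change -0.97 (SE 0.17, limma adjusted p = 0.0566), an interaction of -1.19 (SE 0.25, limma adjusted p = 0.641). Cryab, alpha-B crystallin, had changes of 0.16 and -0.44, an interaction of -0.60 (SE 0.14). Dnaja4, an Hsp40 cochaperone, fell in the knockout by 0.98 (limma adjusted p = 0.0174), beside -0.35 in wildtype, an interaction of -0.63 (SE 0.21).

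The 8 heat shock genes with a lower response in the knockout at an unadjusted p under 0.05, of 21 tested, were Hspb1, Hspb7, Hspb8, Cryab, Hsph1, Dnaja4, Chordc1 and Stip1, and 0 had a higher one, beside 4.39% and 1.33% of all genes. Their wildtype changes ran from -0.35 to 0.22 and their knockout changes from -1.47 to -0.41. The other 13 were of several kinds, and the sorting used the interaction itself. Some had negative changes in both genotypes, with large errors: Hspa1a, the inducible Hsp70, was at -1.60 (SE 0.72) in wildtype and -1.86 (SE 0.67) in the knockout, and its cochaperone Dnajb1 at -1.25 (SE 0.46) and -1.07 (SE 0.43). Hsp90aa1, an inducible Hsp90, was at -0.96 (SE 0.37) and -1.42 (SE 0.34). Hspa4l, an Hsp110 protein, was at -0.72 (SE 0.47) and -0.70 (SE 0.44), neither at an unadjusted p under 0.05. Others were near 0 in both: Fkbp4 at -0.01 and -0.07, Ahsa1 at -0.05 and -0.14, Dnajb5 at -0.02 and -0.10 and Hspb6 at -0.04 and -0.21. Bag3 and Dnajb4, chosen after their values were seen, were also among the 13. Bag3, a cochaperone of Hsp70 and of the small heat shock proteins, had changes of -0.63 (SE 0.18) and -0.63 (SE 0.17), an interaction of 0.00 (95% interval -0.54 to 0.54). Dnajb4, an Hsp40 cochaperone, had changes of -0.84 and -0.86, an interaction of -0.03 (95% interval -0.58 to 0.52). Averaged over genotypes, CR lowered Bag3 and Dnajb4 (limma adjusted p = 0.0348 and 0.0127).

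The list's median interaction was -0.26, with -0.28 in wildtype and -0.76 in the knockout. It leaned on the wildtype controls. Without wildtype control replicate 1 it was -0.01, without wildtype control replicate 3 it was -0.67, and without the 2 and the 4 arrays it was -0.46 and -0.70. Hspa1l, a member, is also expressed in male germ cells and is on that marker list.

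**Figure D4:**
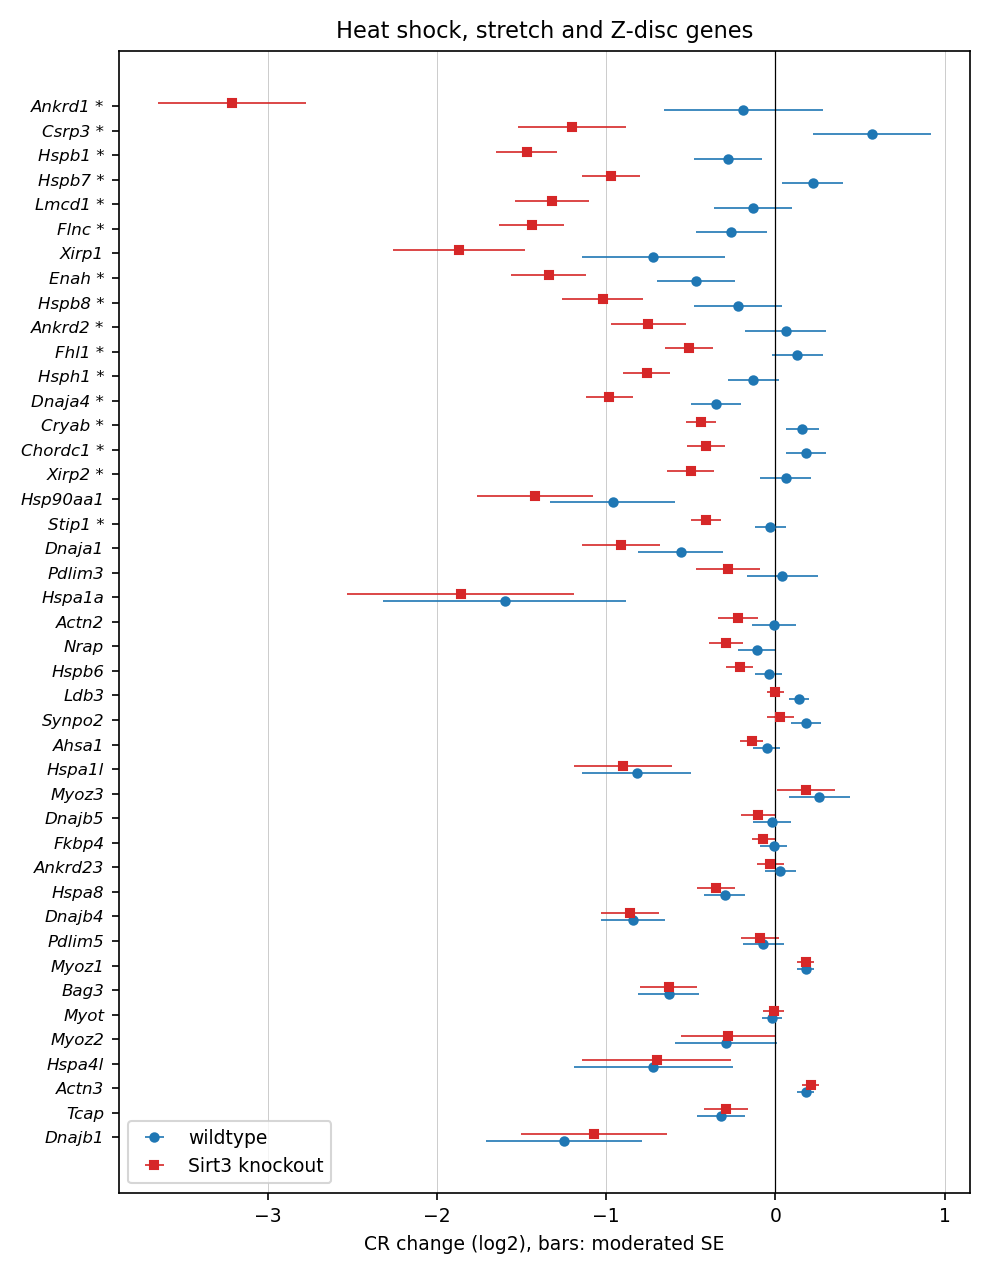
Change with CR (x axis, log2) in wildtype and in knockout muscle for each tested gene of the heat shock and of the stretch and Z-disc lists (y axis), with moderated SE as bars; an asterisk marks an interaction at an unadjusted p under 0.05. For the 8 and 9 marked genes the knockout value lies left of the wildtype value, while Hspa1a, Dnajb1, Dnajb4 and Bag3 lie left of 0 in both genotypes.

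Heat shock genes are known to be switched on by HSF1, a factor that binds inverted repeats of GAA. Promoter windows of 250 bases before to 50 after the start were taken from RefSeq (GRCm38.p6) and searched for a pair of such units, GAANNTTC or TTCNNGAA, each of which reads as itself on the other strand. Of 32851 windows of 300 bases, 15.1% held a pair. Among the heat shock genes with a lower response in the knockout, 5 of the 7 with a window held one, and among the rest of the list 6 of 11. For the stretch and Z-disc genes the counts were 3 of 8 and 2 of 9. The 250 bases before the start are shown for Hspb1, with a large interaction, for Hspa1a, with an interaction of -0.26 (SE 0.99), and for Ankrd1, with the largest negative interaction of the genes tested, with the letters of each unit in capitals. They are at chr5:135887669-135887918 (plus strand), chr17:34972157-34972406 (minus strand) and chr19:36119845-36120094 (minus strand).
Hspb1: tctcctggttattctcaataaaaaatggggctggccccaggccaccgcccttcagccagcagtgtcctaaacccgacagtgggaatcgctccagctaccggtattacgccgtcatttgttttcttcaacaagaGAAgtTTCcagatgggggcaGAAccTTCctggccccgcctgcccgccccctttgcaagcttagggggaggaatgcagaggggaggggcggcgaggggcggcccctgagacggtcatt
Hspa1a: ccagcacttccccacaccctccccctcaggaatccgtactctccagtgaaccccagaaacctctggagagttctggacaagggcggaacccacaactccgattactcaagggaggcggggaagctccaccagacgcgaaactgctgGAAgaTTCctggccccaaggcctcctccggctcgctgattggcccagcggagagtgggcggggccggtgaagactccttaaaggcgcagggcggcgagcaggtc
Ankrd1: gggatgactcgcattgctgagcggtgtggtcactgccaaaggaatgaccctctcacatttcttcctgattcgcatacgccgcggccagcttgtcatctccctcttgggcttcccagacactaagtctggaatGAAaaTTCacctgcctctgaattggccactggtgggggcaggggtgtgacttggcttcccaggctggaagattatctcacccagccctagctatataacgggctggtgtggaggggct
Hspb1 holds 2 pairs, the first starting 117 bases before the start. Hspa1a and Ankrd1 hold 1 each, starting 104 and 118 bases before it. A match is a string of letters and not a measured binding site.

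In the small class of 11 genes the changes in the 2 genotypes had opposite signs. It included Mlec (malectin), which binds glucose-capped glycans in the endoplasmic reticulum. Its values were 7.96, 8.39 and 8.09 in wildtype control, 8.80, 8.54, 8.58 and 8.72 in wildtype CR, 8.77, 8.75, 8.74 and 8.29 in knockout control and 8.37, 8.40, 8.49 and 8.26 in knockout CR muscle. The diets did not overlap in wildtype and overlapped at 1 control array in the knockout. The changes were 0.51 (SE 0.13) and -0.26 (SE 0.12), and the interaction was -0.77 (SE 0.17, limma adjusted p = 0.641). The proteasome subunit gene Psmd3 was another, at 7.71, 7.81 and 7.50, then 7.90, 7.85, 7.87 and 7.90 in wildtype control and CR, and at 7.86, 7.97, 7.91 and 7.90, then 7.67, 7.65, 7.77 and 7.80 in knockout control and CR muscle. Its changes were 0.21 and -0.19 (interaction -0.39, SE 0.10, limma adjusted p = 0.687), without overlap of the diets in either genotype. Also in this class, and chosen after their values were seen, were the calcium-dependent kinase gene Camk2d (0.37 and -0.32) and the protease gene Capn2 (0.21 and -0.22).

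Proteasome genes as a list lay on the same side as Psmd3. Of 32 tested subunits, which build the protease that degrades ubiquitin-tagged proteins, 30 had a negative interaction, beside 6860 of all 12056 genes, 10 at an unadjusted p under 0.05 (4.39% of all genes) and 0 in the other direction. The median was 0.12 in wildtype, -0.09 in the knockout and -0.16 for the interaction. Psmd14, which removes ubiquitin chains at the entry to the proteasome, had 0.27, -0.16 and -0.42 (SE 0.14), and Psmd13 had 0.34, 0.01 and -0.33. Without any 1 array the list median stayed between -0.21 and -0.13, but only 3 subunits had an unadjusted p under 0.05 without the 2 germ cell arrays. Genes of the mitochondrial ribosome, which makes the proteins encoded by mitochondrial DNA, had interactions of similar size. Beside the same shares of all genes, 44 of 51 had a negative interaction, 9 at an unadjusted p under 0.05 (for example Mrps11 at -0.35 and Mrpl15 at -0.24) and 0 in the other direction, and the median was 0.09 in wildtype, -0.08 in the knockout and -0.15 for the interaction. With the marker means as covariates 1 of the 51 had such a p. Genes of the respiratory chain had the median interaction of all genes, -0.03 over 34 genes of complex I and -0.03 over 38 of complexes II to V. A negative interaction was found in 20 of the 34 and 31 of the 38, and 2 and 0 were lower at an unadjusted p under 0.05. The list drawn up for SIRT3 substrates, whose members are not all established substrates, also had a median of -0.03 over 24 genes. It had 0 at that p in either direction. Without knockout control replicate 1 these 3 medians were -0.09, -0.10 and -0.11, and without knockout control replicate 3 they were 0.04, 0.01 and 0.04.

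**Figure D5:**
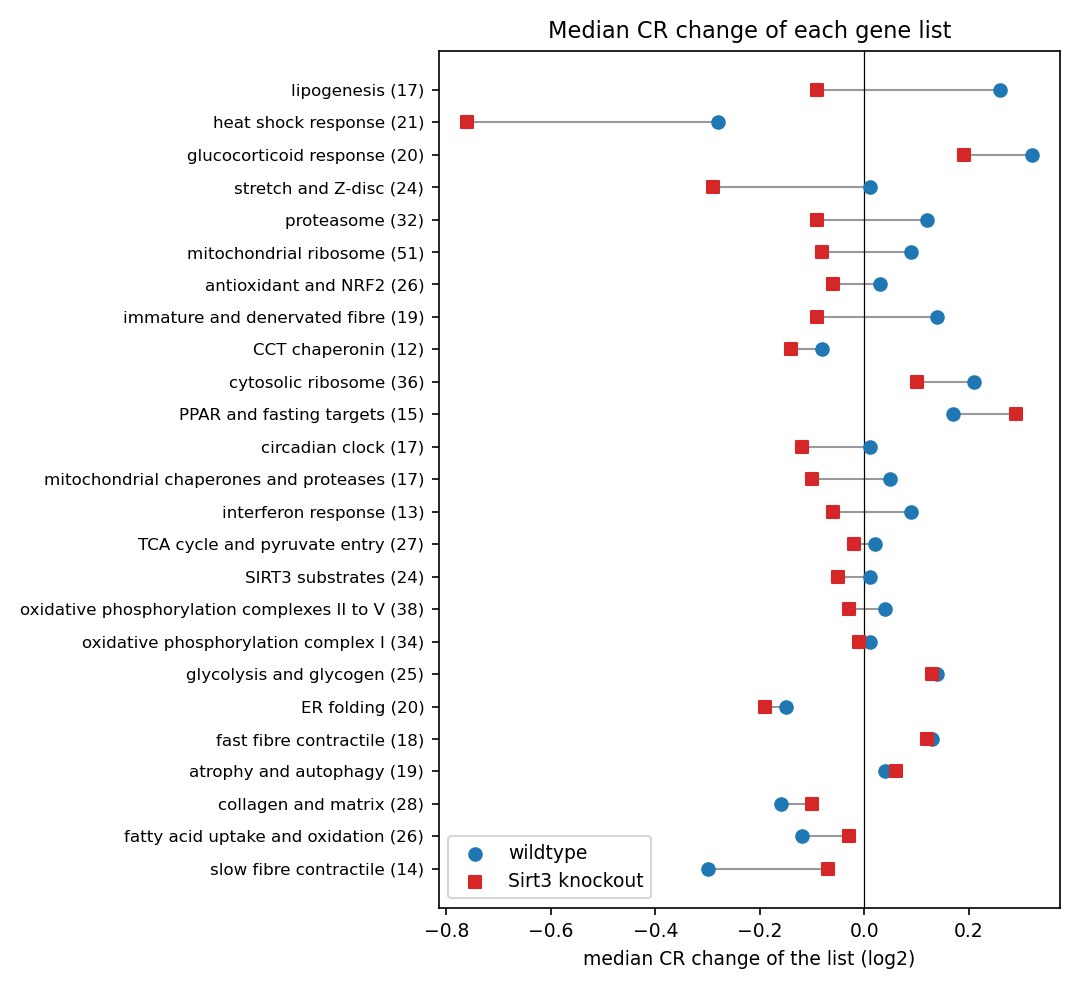
Median CR change (x axis, log2) of each gene list (y axis, number of genes tested in parentheses) in wildtype (circles) and knockout muscle (squares), in order of the median interaction, which need not equal the distance between the 2 medians. Heat shock, stretch and Z-disc and proteasome genes lie further left in the knockout, and fast fibre and glycolysis genes lie in the same place.

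A higher response in the knockout was rarer. Cox18, which inserts a subunit of cytochrome oxidase into the inner membrane, lay at 8.35, 8.35 and 8.47 in wildtype control, 8.04, 8.37, 8.22 and 7.94 in wildtype CR, 8.02, 8.45, 8.28 and 8.02 in knockout control and 8.77, 8.71, 8.70 and 8.45 in knockout CR muscle. Its diets overlapped in wildtype and touched at 8.45 in the knockout. The changes were -0.24 (SE 0.12) and 0.46 (SE 0.11), an interaction of 0.71 (SE 0.17, limma adjusted p = 0.663). Clk3, a kinase of splicing factors, had changes of -0.06 and 0.32 and Zfp106, an RNA-binding zinc finger protein of muscle and motor neurons, of -0.04 and 0.34, with interactions of 0.38 and 0.38. Of the 12 genes with the smallest p in this direction, 3 (Crygn, Mir670 and Gipr) had a group mean below the filter value of 5.32.

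Nnat, an imprinted gene for a small membrane protein, had the largest interaction of these 12 genes. It lay at 7.73, 7.54 and 7.24 in wildtype control, 6.07, 7.06, 6.32 and 5.67 in wildtype CR, 6.32, 5.06, 5.57 and 5.91 in knockout control and 6.62, 6.84, 5.94 and 5.61 in knockout CR muscle. Only the wildtype controls stood apart, above all others. The changes were -1.23 (SE 0.36) and 0.54 (SE 0.33), and the interaction was 1.76 (SE 0.48, limma adjusted p = 0.763), or 2.09 and 1.98 without the 2 and the 4 arrays. Odc1, the first enzyme of polyamine synthesis, also had its wildtype controls above all other arrays, and it was called in wildtype. It lay at 7.80, 8.25 and 8.61 in wildtype control, 7.32, 6.96, 7.30 and 6.97 in wildtype CR, 7.67, 7.32, 7.38 and 7.44 in knockout control and 6.92, 6.75, 7.35 and 7.15 in knockout CR muscle. CR lowered it in wildtype (-1.08, SE 0.18, limma adjusted p = 0.0419), the knockout change was -0.41 (SE 0.17), and the interaction was 0.67 (SE 0.24, limma adjusted p = 0.828). Odc1 has 2 probe sets, of which the one with the highest mean was used. With the mean of probe sets, 0 genes were called lower in wildtype, so Odc1 was not called there.

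One microRNA gene, Mir409, was called in the knockout arm and another, Mir670, was among the 12 genes with the smallest p for a higher response. Mir409 lay at 5.20, 5.30 and 5.11 in wildtype control, 5.23, 5.30, 5.41 and 5.30 in wildtype CR, 5.16, 5.22, 5.10 and 5.35 in knockout control and 5.55, 5.67, 5.60 and 5.67 in knockout CR muscle, all close to the filter value. Only the knockout CR arrays stood apart. The changes were 0.10 (SE 0.07) and 0.41 (SE 0.07, limma adjusted p = 0.0395), an interaction of 0.31 (SE 0.10, limma adjusted p = 0.824). Mir670 had changes of -0.01 and 0.55, an interaction of 0.56 (SE 0.14). The values are those of the genes' probe sets and do not tell the 2 arms of a hairpin apart. The mature arms are shown from RefSeq (GRCm38.p6) for identity, with the seed (bases 2 to 8) in capitals. No seed is shared among them.
mmu-miR-409-5p: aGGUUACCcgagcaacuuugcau
mmu-miR-409-3p: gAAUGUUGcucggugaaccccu
mmu-miR-670-5p: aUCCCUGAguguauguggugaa
mmu-miR-670-3p: uUUCCUCAuauccauucaggagugu

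Genes that responded alike were sought with a rule of their own, since a missed threshold does not show likeness. CR averaged over the genotypes passed the threshold for 129 genes (1.07%, limma adjusted p under 0.05), 78 higher (0.647%) and 51 lower (0.423%). Of these, 97 (0.805% of genes tested) had the same direction and an unadjusted p under 0.05 in each genotype. In 66 (0.547%) the 95% interval of the interaction also lay within -0.5 to 0.5, 48 higher and 18 lower. Their averaged changes were 0.15 to 0.78 in size, with a median of 0.26, and no interaction among them exceeded 0.26 in size. The bound was wide beside the smaller changes: the interval lay within the gene's own averaged change for 19 of the 66, and within -0.25 to 0.25 for 15. The knockout change was the smaller for 44 of the 66.

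Igfbp3 had the largest change that was alike. It encodes a binding protein that carries insulin-like growth factors. Its values were 7.06, 6.98 and 6.56 in wildtype control, 7.62, 7.55, 7.48 and 7.95 in wildtype CR, 6.83, 7.11, 7.01 and 7.49 in knockout control and 8.11, 7.82, 7.67 and 7.93 in knockout CR muscle. The diets did not overlap in either genotype. The changes were 0.78 (SE 0.17) and 0.77 (SE 0.15), the interaction was -0.01 (95% interval -0.50 to 0.47), and averaged over genotypes CR raised it by 0.78 (SE 0.11, limma adjusted p = 0.0127).

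Fast fibre genes were 5 of the 66 genes alike, and genes of glycolysis 2. Without the 2 germ cell arrays, 13 of the 66 still met the rule. Most control arrays carried transcripts of other tissues, and those arrays had lower muscle fibre marker means. The part of this in the rises below was not tested. Mylpf, the fast regulatory myosin light chain, lay at 11.18, 11.38 and 11.29 in wildtype control, 11.76, 11.85, 11.61 and 11.91 in wildtype CR, 11.41, 11.63, 11.67 and 11.54 in knockout control and 11.75, 11.85, 11.79 and 11.92 in knockout CR muscle. All CR arrays lay above all controls of their genotype. The averaged increase was 0.38 (SE 0.06, limma adjusted p = 0.0127), with 0.50 and 0.27 in the arms and an interaction of -0.23 (95% interval -0.48 to 0.02). Of 18 tested fast fibre genes, 5 met the rule, beside 0.547% of all genes: Mylpf, the troponin gene Tnni2 (0.20 and 0.17), alpha-actinin 3, Actn3 (0.18 and 0.21), the calcium buffer gene Pvalb (0.14 and 0.16) and the Z-disc gene Myoz1 (0.18 and 0.18). None of the 18 had an interaction at an unadjusted p under 0.05, and the list median was 0.13 in wildtype and 0.12 in the knockout. Of 25 tested genes of glycolysis and glycogen, 2 met the rule, Tpi1 (0.23 and 0.19) and Pkm (0.25 and 0.22), which encode triose phosphate isomerase and muscle pyruvate kinase. The list median was 0.14 and 0.13. The glycogen enzyme genes Gys1 and Gbe1 were the exceptions, with interactions of -0.21 and -0.71 at an unadjusted p under 0.05.

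Other genes that responded alike had varied roles. Mafa, a transcription factor linked to the fastest myosin, rose by 0.46 on average over genotypes (0.53 and 0.39, interaction -0.14, 95% interval -0.37 to 0.10). Gstm2, a glutathione transferase, rose by 0.43 (0.52 and 0.33), and the cold-inducible RNA-binding protein gene Rbm3 by 0.47 (0.51 and 0.42). Rpl10a, of the large ribosomal subunit, rose by 0.26 (0.33 and 0.19), and Ppp1ca, a catalytic subunit of protein phosphatase 1, by 0.35 (0.46 and 0.23). Misp3 rose by 0.40 (0.52 and 0.27), and although its interaction of -0.25 lay within the bound it had an unadjusted p of 0.0201 and a smaller change in the knockout. Of the 10 genes with the smallest averaged p, 2 fell: Khdrbs3, an RNA-binding regulator of splicing, fell by 0.37 (-0.45 and -0.29), and the nucleotide sugar transporter gene Slc35f5 fell by 0.31 (-0.30 and -0.32). The limma adjusted p of these averaged changes was between 0.0059 and 0.0197. The zinc importer gene Slc39a10, called in wildtype, was near this group, with -0.69 and -0.41 and an interaction of 0.29 (95% interval -0.07 to 0.65) too wide for the bound.

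The number of genes alike moved with single arrays. It was 19 without the 2 germ cell arrays, 0 without the 4 arrays, 9 without wildtype CR replicate 1 or without knockout CR replicate 4, and 119 without wildtype control replicate 1. Over all genes tested the 95% interval of the interaction had a median half-width of 0.29 and lay within -0.5 to 0.5 for 8325 genes (69.1%). That half-width is of an unadjusted interval. At the adjusted threshold no interaction passed, not even that of Mybph at -1.51 (SE 0.22), so differences well over the half-width also went uncalled.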

How the data were processed

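The deposited values are log2 intensities of biotin-labelled RNA on Affymetrix arrays, made by the authors with RMA, as the submitters' processing notes name it. No source used here gives its version or a hybridisation or scan batch. The table held 35556 probe sets on 15 arrays, with array medians of 5.40 to 5.48, and was used without further normalization. From the platform annotation 21789 probe sets had 1 gene symbol, 1621 had several and 12146 are unlisted and unnamed here, and 21698 matched RefSeq (GRCm38.p6). Each of 19938 genes was represented by its probe set with the highest mean (999 had several), and genes averaging under 5.32 (the 40th percentile over listed probe sets) were not tested.

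limma 3.58.1 in R 4.3.3 (lmFit and eBayes, 1 mean per group) gave CR in each genotype, their difference and their average. P-values are two-sided and were adjusted by Benjamini-Hochberg over 12056 genes, with a threshold of 0.05. Errors are moderated SE for changes and SD for group means, and intervals are 95%. P-values set a change against the spread between mice within groups, pooled over the groups and moderated across genes. The fit was tested on simulated data. Replicate numbers were not treated as pairs. Same-numbered arrays' deviations correlated at -0.64 to 0.50. This cannot exclude shared handling, since arrays of different numbers were not compared.

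Named genes were Sirt3, the 12 genes with the smallest interaction p in each direction, genes called in an arm without overlap of the diets, up to 10 genes alike by the averaged p, up to 2 members of each list at an unadjusted interaction p under 0.05, and Prm1, Cela1 and Alb. Other genes in the text are list members or were chosen after their values were seen. The members and the 37 lists (749 of 822 entries on the array, 713 tested) were chosen with earlier results of these data known. Alternatives were other filters, probe set rules, normalizations, priors, weights, a replicate block, fewer groups and left-out arrays. Added after the data were seen were marker means as covariates and tighter bounds for likeness. The plots used matplotlib 3.10.9 under Python 3.11.15.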

Additional observations from a re-analysis of the deposited data

Results flagged for a closer look

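Among 219 groups of 4 arrays of the 73 named genes, 15 had 1 array far from the other 3, judged by the gap to the nearest array as a share of the range (Dixon's test at 95%), where chance gives about 1 in 20 such groups. Mybph stood at 9.96 on wildtype CR replicate 3, below 10.31 to 10.39 on the others of its group, and at 10.05 on knockout CR replicate 2, above 9.61 to 9.66. The Mybph interaction was -1.51 with all arrays and -1.62 without the latter. Csrp3 was at 10.36 on knockout control replicate 1, above 8.91 to 9.08, and Lmcd1 was at 10.89 on the same array, above 10.12 to 10.19. The Csrp3 interaction was -1.76 with that array and -1.42 without it. Mlec was at 8.29 on knockout control replicate 4, below 8.74 to 8.77, and Col6a1 at 6.71 on that array, below 6.97 on the lowest of the others.

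On knockout CR replicate 2, Gm10033 was at 6.17 (others 6.30 to 6.32) and Slc35f5 at 7.58 (others 7.69 to 7.71). On knockout CR replicate 1, Ctnnbip1 was at 7.58 (others 7.27 to 7.32), Clock at 7.26 (others 7.43 to 7.44) and the hepatocyte marker Alb at 10.43 (others 8.45 to 8.72). Gbe1 was at 8.97 on knockout CR replicate 4 (others 8.54 to 8.58) and Ndufa7 at 8.44 on knockout control replicate 2 (others 8.35). In wildtype CR, Rpl10a was at 11.32 on replicate 3 (others 11.40 to 11.41) and Herpud1 at 9.68 on replicate 2 (others 9.50 to 9.51).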

How the results depend on the processing

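The interaction of each of 56 named genes kept its direction under all the alternatives it was run in, the linear signal included. So did the changes of the genes called in an arm and of the 10 leading genes alike. All of these genes were chosen by a small p in the same arrays, which the alternatives refit. A kept direction was therefore close to given beforehand and is not independent support. Of these interactions, 9 values passed the threshold in an alternative. The other 1494 did not, and those of the linear signal among them were judged by direction alone, with no p. Among the called changes, 222 values in wildtype, 76 in the knockout and 16 of the averaged ones missed the threshold in an alternative, and 167, 131 and 244 kept it.

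Counts at the adjusted threshold moved more. For the interaction, 1 gene (Mybph) passed with the filter at the 60th percentile, 6 without the 4 arrays (Hspb1, Gm10033, Mcpt4, Carhsp1, Clps and 2210010C04Rik) and 5 with the marker means as covariates (Mybph, Ankrd1, Otulin, Carhsp1 and 2210010C04Rik). At an unadjusted p under 0.05 it had 1147 probe sets with unnamed ones included and 1045 genes with the covariates. Genes called in wildtype numbered 4 without a filter, with all probe sets, with centring and without the 2 germ cell arrays. They numbered 8 with the mean of probe sets, with quantile normalization, without the 4 arrays and with the covariates, 23 with the 60th percentile and 1 with only the groups compared. Genes called in the knockout numbered 3 with quantile normalization, 4 with the trended robust prior and without the 2 arrays, 24 with array weights, 33 without the 4 arrays, 14 with the covariates and 17 with only the groups compared. The averaged change had 32 without a filter, 222 with all probe sets, 79 with quantile normalization, 52 with centring, 45 without the 2 and 5 without the 4 arrays and 30 with the covariates. Genes alike numbered 15 without a filter, 128 with all probe sets, 23 with centring, 19 without the 2 and 0 without the 4 arrays, 11 with the covariates, 15 with a bound of 0.25 and 24 with the averaged change as bound. The knockout class had 142 members with all probe sets, and the wildtype class 109 without the 4 arrays and 157 with the covariates. The cause was not tested, except that fits without arrays have fewer arrays and those without a filter more genes. The fit without the 4 arrays keeps 1 wildtype control array.

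With the replicate number as a block, 1 gene was called in wildtype, 15 in the knockout and 36 for the averaged change, and 17 were alike. Whether the numbers pair the arrays is not known.

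Without any 1 array the interaction had 0 to 7 genes past the threshold and 515 to 956 at an unadjusted p under 0.05. The counts were 4 to 41 in wildtype, 0 to 15 in the knockout, 23 to 260 averaged, 9 to 119 alike, 38 to 121 in the wildtype class and 28 to 92 in the knockout class. The low ends came without wildtype CR replicate 1, 2 or 4, knockout control replicate 3 or knockout CR replicate 2 for wildtype, without knockout CR replicate 1 or 2 for the knockout, without wildtype CR replicate 1 or knockout CR replicate 4 for averaged and alike counts, without wildtype CR replicate 1 for the wildtype class and without wildtype control replicate 1 for the knockout class. The high ends came without wildtype control replicate 2 for wildtype and its class, without wildtype control replicate 1 for knockout, averaged and alike counts, and without knockout control replicate 4 for the knockout class. The 7 genes, without wildtype control replicate 2, were Mybph, Carhsp1, 2210010C04Rik and the acinar genes Clps, Cpa1, Prss2 and Sycn. On wildtype control replicates 1 and 3, kept in that fit, the acinar marker mean was 0.65 and 0.76 above the median array. Whether acinar transcripts also enter the calls of Carhsp1 and 2210010C04Rik was not tested. The number of arrays, and signal near 5.32 for dim genes such as Mir409, limit what could be called.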

Other observations

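Lipogenesis genes had a median interaction of -0.41 over 17 genes, beside -0.03 over all genes, with large errors. It was -0.23 without wildtype CR replicate 1 and -0.28 without the 4 arrays. Fasn, fatty acid synthase, had changes of 1.57 in wildtype and 0.06 in the knockout, Elovl6, an elongase, 1.26 and -0.23, Thrsp, a lipogenic nuclear protein, 0.79 and -0.18, and Acly, ATP citrate lyase, 0.62 and -0.19. Of the 17 genes 15 had a negative interaction, beside 6860 of all 12056, but only Srebf1, their transcription factor gene, had an unadjusted p under 0.05 (-0.50, SE 0.21, limma adjusted p = 0.831). The means of 12 adipocyte markers, relative to the median array, were 0.72, 0.34, -0.33 and -0.11 on the wildtype CR arrays and 0.53, 0.86, 0.00 and 0.52 on the knockout CR arrays, and their part in this was not tested. Lep, the adipocyte hormone leptin, had changes of -0.75 in wildtype and 0.45 in the knockout (interaction 1.20, SE 0.39, limma adjusted p = 0.824) and was chosen after its values were seen.

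Slow fibre genes had a positive median interaction of 0.20 over 14 genes, with -0.30 in wildtype and -0.07 in the knockout. No slow fibre gene had a higher response at an unadjusted p under 0.05, and Csrp3 and Casq2, a calcium store protein, had lower ones (-1.76 and -0.80). The list median ran from -0.06 without wildtype CR replicate 4 to 0.62 without wildtype CR replicate 3, so its sign turned without 1 array. Fatty acid uptake and oxidation genes had a median of 0.12 over 26 genes, 0 in either direction at an unadjusted p under 0.05, and -0.04 without knockout control replicate 1. With the marker means as covariates, chosen after seeing the data, 13 of the 26 had a higher response at that p. Cytosolic ribosome genes had a median change of 0.21 in wildtype and 0.10 in the knockout over 36 genes, 33 with a negative interaction, beside 6860 of all 12056, and 3 at an unadjusted p under 0.05, beside 4.39% of all genes. Their median interaction was -0.12, and -0.06 without wildtype control replicate 3. The 8 tested acinar markers had a median interaction of 3.04, with -2.80 in wildtype and 0.15 in the knockout, and 4 of them had a higher response at an unadjusted p under 0.05. Their mean was high on wildtype control replicate 2.

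Further genes of large interaction, chosen after their values were seen, were the peptide transporter gene Slc15a2 (1.83 in wildtype and -0.06 in the knockout), the actin-oxidising enzyme gene Mical2 (0.76 and -0.24) and the tubulin gene Tubb6 (0.40 and -0.93). Their limma adjusted p was 0.824, 0.718 and 0.824.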
